A study of Mus musculus with 5 samples.

Results

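The metallothioneins and zinc transporters described here are 8 genes chosen by symbol, and all 8 were found among the 35976 rows of the count table and passed its low-count filter. They are the metallothioneins Mt1, Mt2 and Mt3, the zinc-sensing transcription factor Mtf1, the importers Slc39a12 and Slc39a14 and the exporters Slc30a1 and Slc30a10. They were measured by bulk RNA sequencing in 3 DTx (diphtheria toxin) libraries, called 5A, 6A and 7A, and 2 saline libraries, called 1 and 2, of amygdala astrocytes. The animals of both groups were CCR2-DTR mice of genotype Ccr2::CreERT2/+;DTR/+, in which Cre is driven from the locus of a monocyte chemokine receptor. Both groups received tamoxifen and 18 days of tube restraint and then went through fear conditioning and extinction, and toxin or saline was given during the restraint. There was thus no unstressed group, and strain and age are not given in the labels. The cells were selected after papain digestion with beads against the astrocyte surface antigen ACSA-2, and each library was made from 5 ng of RNA.

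Metallothioneins are small proteins rich in cysteine, whose sulphur atoms hold zinc and copper ions. Free zinc binds MTF1, which then binds metal response elements in the promoters of Mt1, Mt2 and the exporter gene Slc30a1. Mt1 and Mt2 are also induced by glucocorticoids and by cytokines that act through STAT3, while Mt3 is expressed mainly in the brain and responds little to metals. Proteins of the SLC39 (ZIP) family bring zinc into the cytosol and most of the SLC30 (ZnT) family take it out of the cytosol. SLC39A14 also imports manganese and iron, and SLC30A10 exports manganese.

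Mt3, Mt2 and Mt1 lie in that order on the plus strand of GRCm38 chromosome 8 within 27721 bases, with 18517 bases between Mt3 and Mt2 and 5513 between Mt2 and Mt1 in the GENCODE M21 principal transcripts. Their coding sequences, each spread over 3 exons, are shown because cysteine content and the length of Mt3 are what set the family and its brain form apart. They are written 5′ to 3′ with the stop codon and with the in-frame cysteine codons in capitals.
Mt1: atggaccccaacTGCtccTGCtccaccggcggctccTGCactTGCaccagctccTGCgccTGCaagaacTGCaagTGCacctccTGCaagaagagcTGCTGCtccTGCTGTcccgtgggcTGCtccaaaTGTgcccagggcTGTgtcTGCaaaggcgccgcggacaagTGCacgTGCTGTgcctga
Mt2: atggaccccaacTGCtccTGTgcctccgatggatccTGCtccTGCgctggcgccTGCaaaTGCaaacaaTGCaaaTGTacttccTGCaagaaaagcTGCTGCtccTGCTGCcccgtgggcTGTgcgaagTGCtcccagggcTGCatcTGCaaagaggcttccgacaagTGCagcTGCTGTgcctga
Mt3: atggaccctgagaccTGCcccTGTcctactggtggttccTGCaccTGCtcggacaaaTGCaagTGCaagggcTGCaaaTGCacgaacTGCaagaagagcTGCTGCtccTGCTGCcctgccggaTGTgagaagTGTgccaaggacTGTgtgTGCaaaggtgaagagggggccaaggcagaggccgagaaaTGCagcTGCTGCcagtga
The 3 sequences span chr8:94179311-94180193 for Mt1, chr8:94172848-94173427 for Mt2 and chr8:94152800-94154010 for Mt3, introns included. Each held 20 cysteine codons, which is 32.8% of the 61 codons of Mt1 and of Mt2 and 29.4% of the 68 codons of Mt3. Mt1 and Mt2 were identical at 79.6% of 186 aligned bases with no gap, and Mt3 was identical to Mt1 at 73.7% and to Mt2 at 75.3% of the aligned bases, with 21 further bases of its own in 3 gaps. Transcripts were 549, 511 and 536 bases long for Mt1, Mt2 and Mt3, so their counts can be set side by side with little effect of length.

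Cores of the metal response element were searched in the RefSeq GRCm38.p6 windows of 300 bases around each annotated start, for the 7 of 8 members that the table holds. The letters searched were TGCACNC and TGCGCNC on both strands. Mt2 held 4 cores, Mt1 and Slc30a10 held 3 each, Slc30a1 held 2, Mt3 held 1, and Mtf1 and Slc39a12 held 0. Of all 32851 windows, 25.7% held at least 1 core, 1.97% at least 3 and 0.517% at least 4. In Slc30a10, a pair of the 3 cores are overlapping readings of the same letters on opposite strands. The sites of Mt1, Mt2 and Mt3 are shown, with the core in capitals and 10 bases on either side, because Mt1 and Mt2 had similar values over the libraries.
Mt1 site at chr8:94179056-94179082, core on the plus strand: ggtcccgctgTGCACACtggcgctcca
Mt1 site at chr8:94179081-94179107, core on the plus strand: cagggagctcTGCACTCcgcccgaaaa
Mt1 site at chr8:94179099-94179125, core on the plus strand: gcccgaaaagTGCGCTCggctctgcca
Mt2 site at chr8:94172385-94172411, core on the plus strand: gcatcgcctcTGCACCCggcccctcgg
Mt2 site at chr8:94172480-94172506, core on the plus strand: gcagacccttTGCGCTCagctcctttg
Mt2 site at chr8:94172558-94172584, core on the minus strand: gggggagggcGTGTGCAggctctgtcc
Mt2 site at chr8:94172612-94172638, core on the minus strand: aattcgggtcGTGCGCAggcccagggg
Mt3 site at chr8:94152624-94152650, core on the plus strand: gggacagcagTGCACACacacggagag
The letters TATAAA stood 129, 90 and 107 bases into the annotated principal transcripts of Mt1, Mt2 and Mt3, so these windows lie upstream of that element and are not the whole of each promoter. A STAT core, TTCNNNGAA, was found in 0 of the 7 windows, against 8.3% of all windows. An antioxidant response element core, TGACNNNGC, was found once each in Mt2 and Slc30a1, against 12.4% of all windows. These matches are letters in a window, and binding was not measured.

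Several facts of the libraries as a whole touch the values below. The libraries did not sort by treatment alone: the chi-square per degree of freedom between counts was 14.2 for DTx 5A and 6A and 17.7 for DTx 7A and saline 2, against 46.6 to 88.2 for the other 8 pairs. Total counts were 15961220 to 18708138 in DTx and 20577672 to 23720299 in saline libraries. Levels are given as CPM, counts scaled to a common library size with TMM factors. Astrocyte markers, 10 genes, summed to 24720 to 28323 CPM in DTx and 24227 to 25494 CPM in saline libraries, with none at 0. Oligodendrocyte markers, 6 genes, summed to 41028 to 86575 CPM in DTx and 57503 to 88228 CPM in saline libraries, above the astrocyte sum in 5 of 5 libraries, without regard to transcript length. Ccr2, whose cells the toxin is meant to remove, was at 2.85, 0.249 and 0.228 CPM in DTx 5A, 6A and 7A and at 0 counts in saline libraries, opposite to the label. It did not pass the low-count filter, and most of its signal was in 5A. Y-linked genes were present in the libraries labelled DTx and at or near 0 in saline, and Xist the reverse, so treatment and sex-chromosome state cannot be told apart. In bulk samples, more cells of a type and more RNA per cell also cannot be told apart. Each direction given is that of the libraries as labelled.

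Per length, the metallothioneins and Slc39a12 were far above the other members. Levels in CPM are divided here by the length in kilobases of the principal transcript. Mt1 stood at 1698 ± 89.3 CPM per kb in DTx libraries (SD, n = 3) and 1176 ± 502 CPM per kb in saline libraries (SD, n = 2). Mt3 followed with 840 ± 115 CPM per kb in DTx and 671 ± 301 CPM per kb in saline libraries. Mt2 had 315 ± 36.7 CPM per kb in DTx and 187 ± 79.4 CPM per kb in saline libraries, and Slc39a12 had 204 ± 23.9 and 199 ± 68.4 CPM per kb in the same order of groups. Mtf1, Slc30a10, Slc30a1 and Slc39a14 averaged 5.76, 4.71, 2.76 and 1.12 CPM per kb over the 5 libraries. Dividing by coding length gave the same order of the 8 genes.

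Some neighbours in that order did not separate. The ranges of Mt1 and Mt3 over the 5 libraries overlapped, although Mt1 was above Mt3 within 5 of 5 libraries. Mt2 was above Slc39a12 in 3 of 5 libraries, which were the 3 DTx libraries. Mtf1 and Slc30a10 overlapped, as did Slc30a10 and Slc30a1. Mt4, the remaining mouse metallothionein gene, had 0 counts in all 5 libraries, where a count of 0 allows up to 3 counts.

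**Figure D1:**
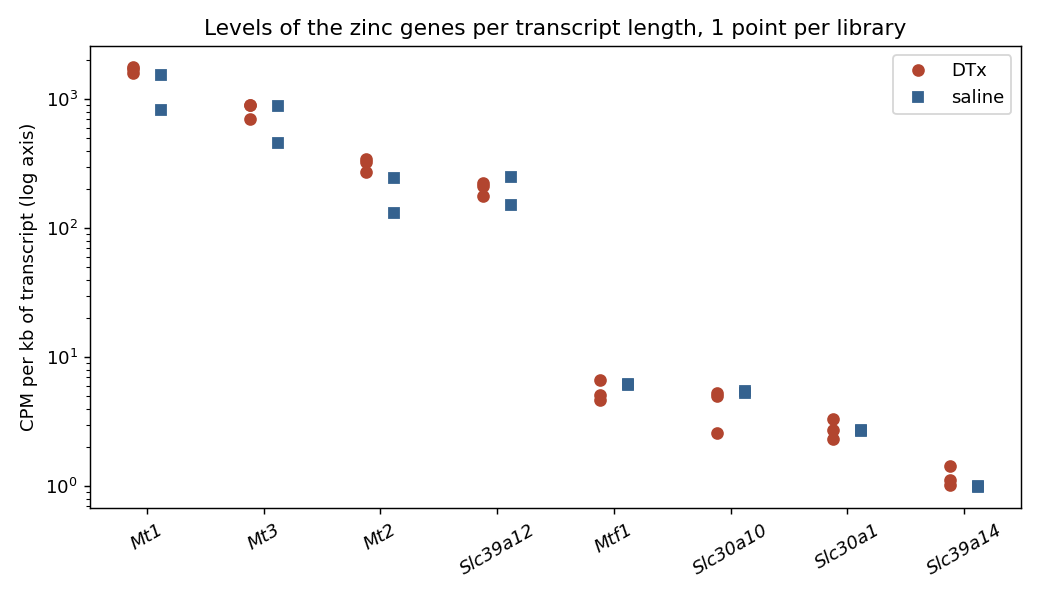
Level of each member in CPM per kb of its principal transcript, on a log axis, with 1 point per library (DTx left of saline). Mt1, Mt3, Mt2 and Slc39a12 lie above 100, whereas Mtf1, Slc30a10, Slc30a1 and Slc39a14 lie below 10.

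No member passed the test between DTx and saline libraries. With edgeR's quasi-likelihood test and Benjamini-Hochberg adjustment over 15532 genes, 0 of 8 members had an adjusted p under 0.05, and the adjusted p ranged over 0.789 to 0.978. Over all genes 0.0322% passed, which is 5 genes, with 0.0258% higher (4 genes of chromosome Y) and 0.00644% lower (Xist). At an unadjusted p under 0.05 there was 1 member, Mt2, which was higher, against 6.28% of all genes in either direction and 4.29% higher. DESeq2 and limma-voom also called 0 members, against 0.689% and 0.0322% of all genes. The log2 fold change, DTx over saline, was above 0 for 6 members and below 0 for 2, with a median of 0.15 against 0.00171 over all genes tested.

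The groups did not overlap for 4 members. Mt1, Mt2 and Slc39a14 were higher in every DTx library than in either saline library, which is 3 of 8 members against 12.1% of all genes. Slc30a10 was lower in every DTx library, which is 1 of 8 members against 8.99% of all genes. The separation of Slc39a14 was lost with total-count scaling and that of Slc30a10 with total-count and upper-quartile scaling. Without saline 2, 5 members were higher in every DTx library than in saline 1, against 33.3% of all genes, and without saline 1 the number was 3, against 27.4%. Members lower in every remaining DTx library were Mtf1 and Slc30a10 without 7A, against 21.6% of all genes, and Slc39a12 and Slc30a10 without saline 1, against 24.8%. Without 7A the log2 fold changes of Mt1, Mt2 and Mt3 were 0.57, 0.84 and 0.44.

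Mt1, the major inducible metallothionein, had 976, 942 and 879 CPM in DTx 5A, 6A and 7A, against 451 and 841 CPM in saline 1 and 2. The 3 DTx libraries were close together, saline 2 lay just below them, and saline 1 was far lower than the other 4. On the log2 scale the fold change was 0.53 ± 0.28 (SE) with an edgeR adjusted p of 0.797. It was 0.15 without saline 1 and 1.05 without saline 2, with adjusted p of 0.901 and 0.403.

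Mt2, the neighbouring inducible gene, had 176, 166 and 140 CPM in DTx 5A, 6A and 7A, against 66.8 and 124 CPM in saline 1 and 2. All DTx libraries were above both saline libraries, with 7A the nearest to saline 2. DTx over saline gave a log2 fold change of 0.75 ± 0.28 (SE), or 1.68-fold, with an unadjusted p of 0.0324 and an edgeR adjusted p of 0.789. Leaving out saline 1 gave 0.37 and leaving out saline 2 gave 1.27, with adjusted p of 0.856 and 0.403.

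Mt3, the brain form, had 486, 486 and 379 CPM in DTx 5A, 6A and 7A, against 245 and 474 CPM in saline 1 and 2. Saline 2 lay among the DTx libraries, so the groups overlapped, and saline 1 was again the lowest. Its log2 fold change of 0.33 ± 0.30 (SE, edgeR adjusted p = 0.840) became -0.08 without saline 1 and 0.88 without saline 2.

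**Figure D2:**
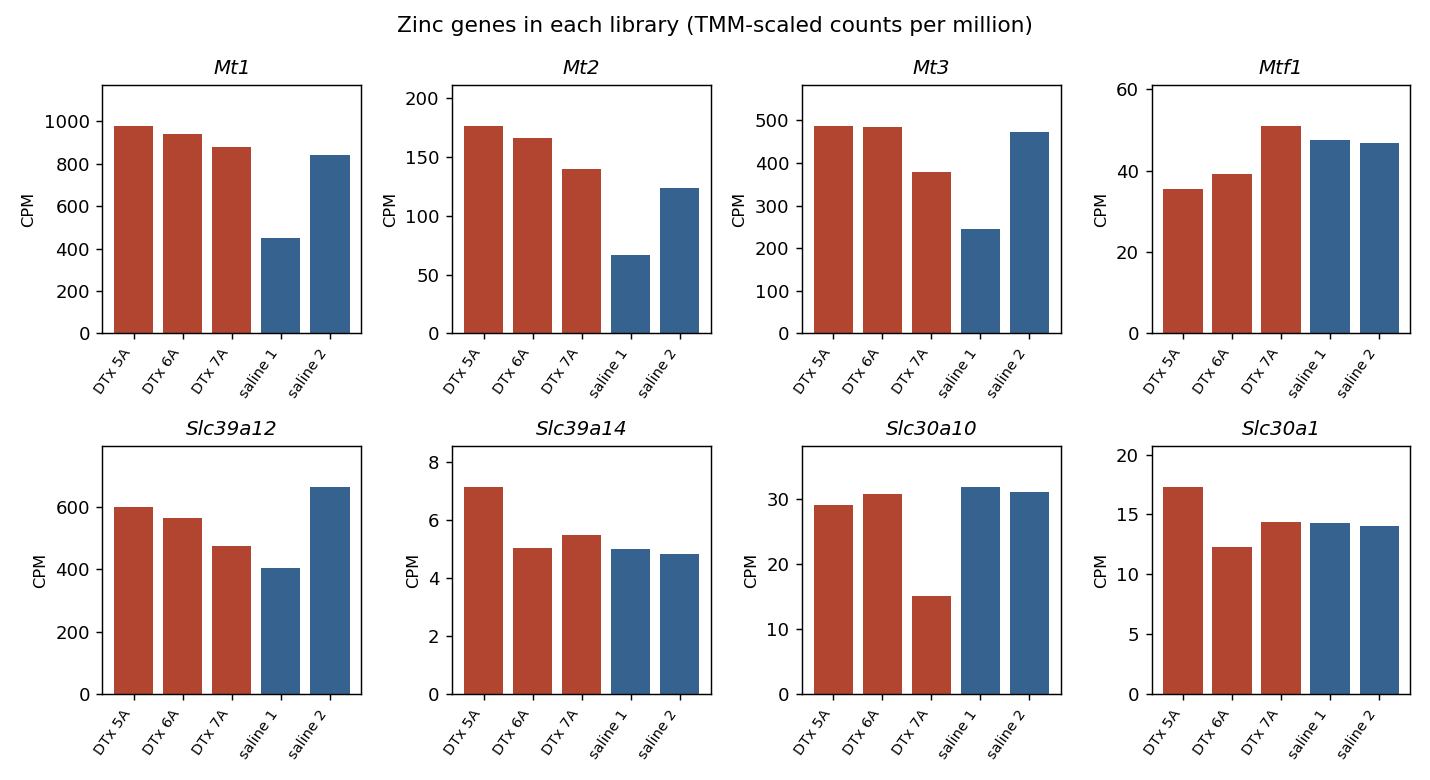
TMM-scaled CPM of each member in the 5 libraries (DTx red, saline blue), each panel with its own axis from 0. Saline 1 is the lowest library for Mt1, Mt2, Mt3 and Slc39a12, and DTx 7A is the lowest for Slc30a10.

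Taken as ratios, the saline libraries differed from each other by more than the groups did for Mt1, Mt2, Mt3 and Slc39a12, whose folds of DTx over saline were 1.44, 1.68, 1.25 and 1.02. The level in saline 2 was 1.86 times that in saline 1 for Mt1 and for Mt2, 1.93 times for Mt3 and 1.64 times for Slc39a12. The median ratio over all genes tested was 1.004, and 4.30%, 4.33% and 3.80% of genes had a ratio at least as high as Mt1, Mt2 and Mt3. The other members differed between the saline libraries by less than 3%, with ratios of 0.984 for Mtf1, 0.971 for Slc39a14, 0.977 for Slc30a10 and 0.983 for Slc30a1.

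Other measures of the same libraries stood beside these values, some in a like order and some not. The summed level of 78 ribosomal protein genes, a group chosen after the similar genes below were seen, was 6173, 5949 and 5516 CPM in DTx 5A, 6A and 7A, against 3637 and 5881 CPM in saline 1 and 2. Genes with transcripts of at most 700 bases had a median saline 2 over saline 1 ratio of 1.15 and a median log2 fold change of 0.17, over 409 genes. For the ribosomal protein genes these medians were 1.66 and 0.32, against 1.004 and 0.00171 over all genes tested. Every DTx library was above both saline libraries for 18.6% of the short-transcript genes and 16.7% of the ribosomal protein genes, against 12.1% of all genes. The short-transcript genes summed to 35707, 37447 and 60902 CPM in DTx 5A, 6A and 7A, against 38740 and 60115 CPM in saline 1 and 2. Microglia markers, 10 of 10 of them with an estimate above 0 and none at 0 in a group, summed to 373, 282 and 219 CPM in DTx and 92.4 and 229.7 CPM in saline libraries. Monocyte and border macrophage markers, 8 genes, summed to 160.2, 22.5 and 58.7 CPM in DTx 5A, 6A and 7A, against 17.5 and 24.9 CPM in saline 1 and 2. Of these markers, Ccr2 was at 0 counts in saline libraries and Ly6c2 was at 0 counts in DTx libraries. Ependymal markers, 5 genes, summed to 19.1 to 109 CPM in DTx libraries, against 208 CPM in saline 1 and 16.5 CPM in saline 2. Neuron markers, 9 genes, summed to 288, 372 and 327 CPM in DTx and 234 and 237 CPM in saline libraries. None of them was at 0 in a group, and 7 of 9 had an estimate above 0. For 4 of the 9 every DTx library was above both saline libraries, against 12.1% of all genes. Gfap, the filament gene of reactive astrocytes, had 1079, 1132 and 1609 CPM in DTx 5A, 6A and 7A, against 290.2 and 741 CPM in saline 1 and 2. From high to low, Mt1 and Mt2 had the order 5A, 6A, 7A, saline 2 and saline 1, and Mt3 had saline 2 above 7A. The ribosomal protein and microglia sums had the order of Mt3. The short-transcript, ependymal, macrophage and neuron sums and Gfap each had an order of the libraries unlike that of Mt1, Mt2 or Mt3. A sum is weighted to its most abundant genes, so its order need not be that of each gene in it. The part of these measures in the metallothionein values was not tested.

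The makeup of the metallothionein counts does not depend on how libraries are scaled, and the shares of Mt2 and of Mt3 each separated the groups. Mt2 made up 10.8% (95% Wilson interval 10.4 to 11.1), 10.4% (10.1 to 10.8) and 10.003% (9.63 to 10.4) of the Mt1, Mt2 and Mt3 counts in DTx 5A, 6A and 7A. In saline 1 and 2 it made up 8.75% (8.33 to 9.19) and 8.63% (8.33 to 8.95). The saline libraries, whose levels differed 1.86 times, had nearly the same share, and every DTx share was above them. The intervals take each read as an independent molecule, which reads without molecular identifiers need not be, so they may be too narrow even for counting error. Variation between libraries of a group is not covered by them.

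Mt3 made up 29.7% (95% Wilson interval 29.2 to 30.2), 30.5% (29.9 to 31.0) and 27.1% (26.6 to 27.7) in DTx 5A, 6A and 7A, and 32.1% (31.4 to 32.9) and 32.9% (32.4 to 33.4) in saline 1 and 2. Every DTx share was below the saline shares. Mt1 made up 59.1% to 62.9% in DTx libraries and 58.4% to 59.1% in saline libraries, where the groups overlapped. Put as ratios of counts, Mt2 over Mt1 was 0.181, 0.176 and 0.159 in DTx and 0.148 and 0.148 in saline libraries. Mt2 over Mt3 was 0.363, 0.342 and 0.369 in DTx and 0.272 and 0.262 in saline libraries. Mt1 over Mt3 was 2.01, 1.94 and 2.32 in DTx and 1.84 and 1.78 in saline libraries. Each of these ratios was higher in every DTx library than in either saline library. These shares and ratios were examined after the levels had been seen and carry no test. How often shares or ratios of other genes separate the groups was not counted. For levels of single genes, the groups did not overlap in 12.1% (DTx higher) and 8.99% (DTx lower) of all genes. The shares of Mt1, Mt2 and Mt3 add up to the whole in each library, so the Mt2 and Mt3 separations are not independent.

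**Figure D3:**
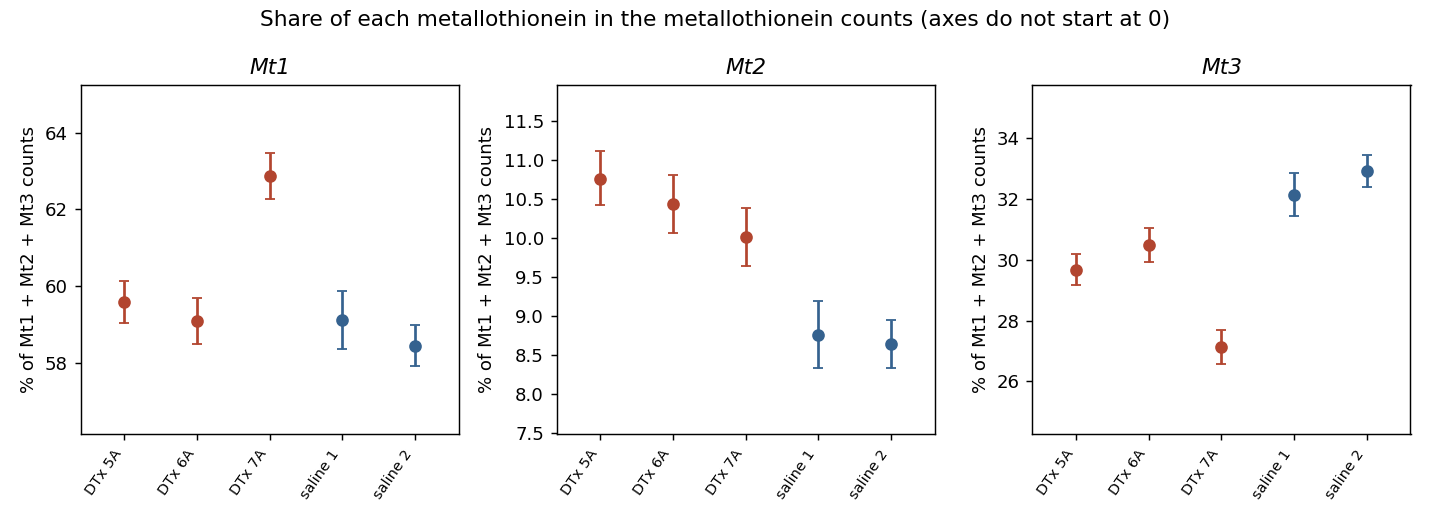
Percent of the summed Mt1, Mt2 and Mt3 counts that each gene made up, per library (DTx red, saline blue), with 95% Wilson intervals and axes that do not start at 0. The Mt2 share is 10.003% to 10.8% in DTx and 8.63% to 8.75% in saline libraries, and the Mt3 share is lower in all 3 DTx libraries than in both saline libraries.

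The 3 genes nearest in pattern to each metallothionein differed between Mt1, Mt2 and Mt3. Likeness was the root mean square difference over 5 libraries between log2 CPM values centred on each gene's mean, among 10030 genes with a mean of at least 5 CPM. Ribosomal protein genes made up 0.768% of those compared, and no test was made of their place among the nearest. The nearest to Mt1 were Rps7, Rps19 and Rpl13, all of ribosomal proteins, at 0.0452, 0.0477 and 0.0512. The nearest to Mt3 were Rpl27 and Rpl24, also of ribosomal proteins, and Ost4, an oligosaccharyltransferase subunit, at 0.0381, 0.0435 and 0.0490.

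The nearest to Mt2 were Agt, the angiotensinogen gene made by astrocytes, Tceal8 and Bcl6, a transcriptional repressor, at 0.0673, 0.0680 and 0.0690. Agt had 1633, 1684 and 1297 CPM in DTx 5A, 6A and 7A, against 635 and 1090 CPM in saline 1 and 2. Mt1 ranked 9 among the genes nearest to Mt2, and Mt2 ranked 56 among those nearest to Mt1. Mt3 differed from Mt1 by 0.13 and from Mt2 by 0.21 on this log2 scale.

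Mtf1 (chr4:124802549-124849800, plus strand), the zinc sensor that drives Mt1 and Mt2, had 35.5, 39.2 and 50.9 CPM in DTx 5A, 6A and 7A, against 47.5 and 46.8 CPM in saline 1 and 2. Libraries 5A and 6A were below both saline libraries and 7A was above them. Its log2 fold change was -0.17 ± 0.18 (SE, edgeR adjusted p = 0.865), and -0.07 and -0.34 without 5A and without 7A. Across the 5 libraries its centred log2 levels differed from those of Mt1 by 0.53, against 0.12 between Mt1 and Mt2.

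Slc39a12 (chr2:14388399-14494977, plus strand), a zinc importer enriched in the brain, had 599, 563 and 475 CPM in DTx 5A, 6A and 7A, against 404 and 662 CPM in saline 1 and 2. The saline libraries were the lowest and the highest of all, and the DTx libraries lay between them. The log2 fold change was 0.03 ± 0.25 (SE, edgeR adjusted p = 0.978), and -0.28 and 0.44 without saline 1 and without saline 2. Its pattern was 0.18 from that of Mt3, nearer than to Mt1 (0.27) or Mt2 (0.37).

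Slc39a14 (chr14:70303469-70351425, minus strand), the importer of zinc, manganese and iron, had 7.14, 5.04 and 5.47 CPM in DTx 5A, 6A and 7A, against 4.99 and 4.84 CPM in saline 1 and 2. These were 81 to 135 counts per library, and library 6A exceeded saline 1 by little. The log2 fold change of 0.26 ± 0.27 (SE, edgeR adjusted p = 0.861) was 0.09 without 5A.

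Slc30a10 (chr1:185454848-185468762, plus strand), the manganese exporter, had 29.0, 30.7 and 15.0 CPM in DTx 5A, 6A and 7A, against 31.8 and 31.0 CPM in saline 1 and 2. Library 7A alone was low, with 264 counts, and the other 4 libraries were close together. The log2 fold change was -0.33 ± 0.30 (SE, edgeR adjusted p = 0.838) and -0.07 without 7A. In library 7A oligodendrocyte markers, 6 genes, summed to 86575 CPM, against 41028 and 42360 CPM in 5A and 6A, and they summed to 57503 and 88228 CPM in saline 1 and 2. The part of these markers in the Slc30a10 values was not tested.

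Slc30a1 (chr1:191906767-191913247, plus strand), the zinc exporter of the plasma membrane and a target of MTF1, had 17.3, 12.3 and 14.4 CPM in DTx 5A, 6A and 7A, against 14.3 and 14.1 CPM in saline 1 and 2. The DTx libraries lay on both sides of the saline pair. Its log2 fold change was 0.05 ± 0.20 (SE, edgeR adjusted p = 0.968), and -0.09 and 0.16 without 5A and without 6A. Its pattern was nearest among the members to that of Slc39a14, at 0.11, and was 0.43 from Mt1 and 0.51 from Mt2.

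**Figure D4:**
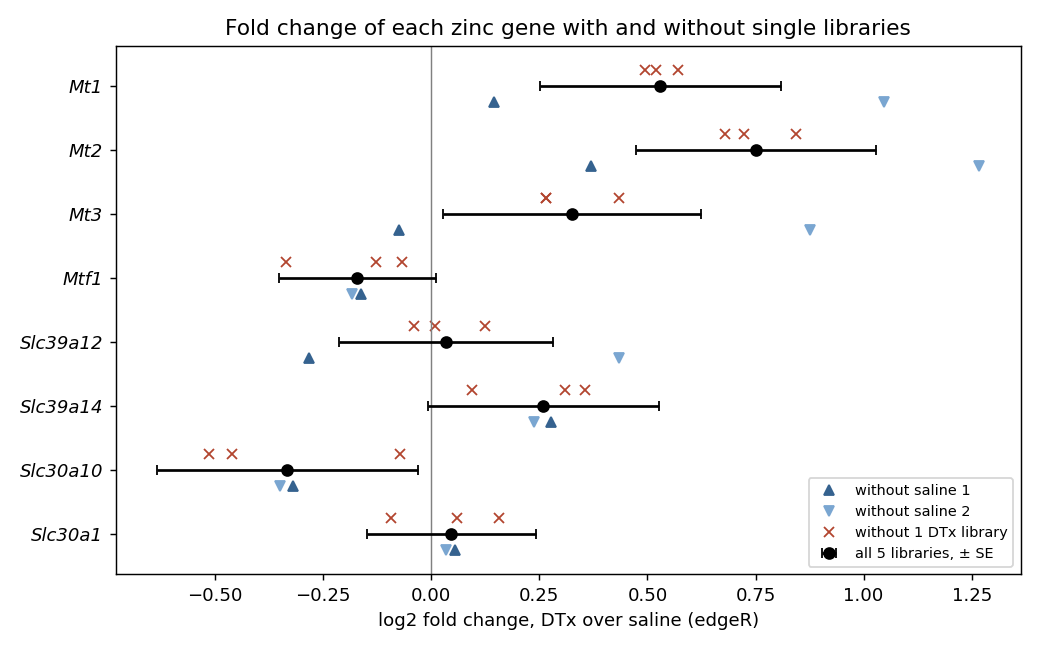
Log2 fold change, DTx over saline, of each member from all 5 libraries (black, ± SE) and with 1 library left out (red crosses, a DTx library; blue triangles, a saline library). The 3 metallothioneins and Slc39a12 move most with the choice of saline library, and Slc30a10 moves to -0.07 without DTx 7A.

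Of the whole transporter families, 21 of 24 genes passed the low-count filter (9 of 10 SLC30 and 12 of 14 SLC39), and 0 passed the test in either direction. Their median log2 fold change was -0.02 against 0.00171 over all genes tested, with 9 estimates above 0 and 12 below. By edgeR 1 of the 21 had an unadjusted p under 0.05, a share no higher than the 6.28% of all genes, and DESeq2 and limma-voom called 0. Slc30a8 had no count in any library, and Slc39a2 and Slc39a5 fell below the filter.

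That gene was Slc39a8, an importer of zinc and manganese closely related to Slc39a14. It had 24.6, 32.8 and 15.8 CPM in DTx 5A, 6A and 7A, against 8.13 and 14.7 CPM in saline 1 and 2. Every DTx library was above both saline libraries, with 7A close to saline 2. Its log2 fold change was 1.09 ± 0.39 (SE), with an unadjusted p of 0.0289 and an edgeR adjusted p of 0.789.

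The next SLC39 genes by p were Slc39a10, Slc39a3 and Slc39a11. Slc39a10, an importer at the cell surface, averaged 23.0 ± 2.19 CPM in DTx (SD, n = 3) and 18.1 ± 0.698 CPM in saline libraries (SD, n = 2), an edgeR adjusted p of 0.797. Slc39a3 averaged 34.5 ± 9.01 CPM in DTx and 48.4 ± 5.51 CPM in saline libraries, and Slc39a11 averaged 19.4 ± 3.85 CPM in DTx and 15.5 ± 0.385 CPM in saline libraries.

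Among the other SLC30 genes, log2 fold changes were -0.54 for Slc30a3, 0.13 for Slc30a5, -0.13 for Slc30a4 and 0.15 for Slc30a6, with edgeR adjusted p of 0.854 to 0.906. Slc30a3, which loads zinc into synaptic vesicles of glutamatergic neurons, was at 0.373 to 0.581 CPM in DTx and 0.493 and 0.831 CPM in saline libraries.

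**Figure D5:**
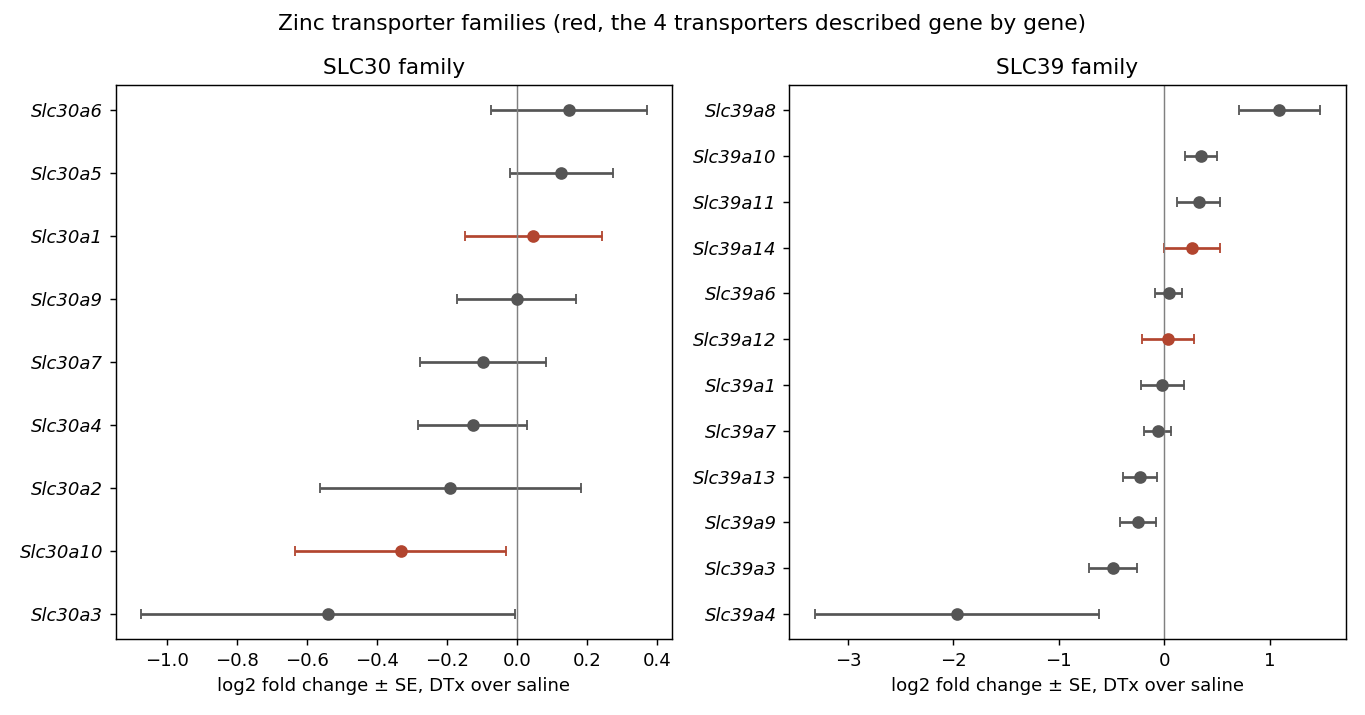
Log2 fold change, DTx over saline, with its SE, of the SLC30 and SLC39 genes that passed the filter, with the 4 members in red. Slc39a8 has the highest estimate (1.09) and Slc39a4, at under 6 CPM in every library, the lowest (-1.97). Slc39a4 was at 5.68 CPM in saline 1, 0.134 CPM in saline 2 and 0.342 to 1.48 CPM in DTx libraries, so its estimate rests on saline 1.

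Manganese handling shares Slc39a14, Slc39a8 and Slc30a10 with the zinc transporters. Of 12 genes listed and tested, 0 passed, 4 had an estimate above 0 and 8 below, and the median log2 fold change was -0.09. Besides Slc39a8 and Slc30a10, the smallest p belonged to Atp13a1, an ATPase of the endoplasmic reticulum, and Arg2, a manganese-dependent arginase. Atp13a1 had 26.2, 30.4 and 29.6 CPM in DTx 5A, 6A and 7A, against 38.0 and 35.5 CPM in saline 1 and 2, an edgeR adjusted p of 0.789. Arg2 averaged 0.682 ± 0.251 CPM in DTx and 0.431 ± 0.152 CPM in saline libraries (SD, n = 3 and n = 2).

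Of 12 genes listed as responding to zinc or MTF1, which include Mt1, Mt2 and Slc30a1, 0 passed, and 10 had an estimate above 0, with a median log2 fold change of 0.25. For 5 of the 12 every DTx library was above both saline libraries, against 12.1% of all genes, and 3 of those 5 were Mt1, Mt2 and Slc39a10. The list does not separate genes that zinc raises from genes that it lowers, and it was chosen with earlier results of these data known. The numbers of estimates above 0 and of genes without overlap are therefore no measure of a zinc response. Pgf, placental growth factor, had the smallest p, with 28.6, 27.1 and 27.0 CPM in DTx 5A, 6A and 7A, against 19.1 and 18.1 CPM in saline 1 and 2. Both groups were tight and apart, at a log2 fold change of 0.57 ± 0.13 (SE, edgeR adjusted p = 0.761).

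Of 14 regulators and reporters of the pathways that induce metallothioneins, 0 passed, 10 had an estimate above 0, and the median log2 fold change was 0.42. The list was chosen with earlier results of these data known, so the counts given here are no measure of whether these pathways were raised. For 8 of the 14 every DTx library was above both saline libraries, against 12.1% of all genes, and for 1 every DTx library was below, against 8.99%. That gene was Il6st, which encodes gp130, with 101, 129 and 125 CPM in DTx 5A, 6A and 7A, against 130 and 139 CPM in saline 1 and 2 (edgeR adjusted p = 0.835). Socs3, a target of STAT3, had 10.1, 3.48 and 8.26 CPM in DTx 5A, 6A and 7A, against 16.7 and 3.86 CPM in saline 1 and 2 (edgeR adjusted p = 0.903). The 4 estimates below 0 were those of Il6st, Socs3, Nr3c1 and Cebpb, with log2 fold changes of -0.118 for Nr3c1 and -0.123 for Cebpb. In the list, the smallest p belonged to Cebpd, Osmr, Hmox1 and Stat3, each with an edgeR adjusted p of 0.789. The others of the 8 genes above in every DTx library were Fkbp5, Tsc22d3, Sgk1 and Nqo1. Their log2 fold changes were 0.78, 0.34, 1.71 and 0.46, with edgeR adjusted p of 0.789 to 0.803. Sgk1 had 306, 437 and 1128 CPM in DTx 5A, 6A and 7A, against 105 and 277 CPM in saline 1 and 2. Its highest value was thus in 7A alone, and 5A lay near saline 2. Stat3, the transcription factor downstream of gp130 cytokines, had 143, 168 and 148 CPM in DTx 5A, 6A and 7A, against 115 and 121 CPM in saline 1 and 2. Hmox1, heme oxygenase, had 12.1, 8.46 and 9.91 CPM in DTx 5A, 6A and 7A, against 4.85 and 6.77 CPM in saline 1 and 2. Cebpd, a transcription factor, averaged 11.5 ± 0.630 CPM in DTx and 6.12 ± 2.38 CPM in saline libraries. Osmr, the oncostatin M receptor, averaged 3.65 ± 0.331 CPM in DTx and 1.47 ± 0.774 CPM in saline libraries (SD, n = 3 and n = 2).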

How the data were processed

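Per the labels, 5 libraries were analysed, 3 DTx and 2 saline. The series' design text gives 3 animals in each group, and 1 further column of per-sample values, whose name holds the word Ctrl, matched none of the labels at hand and was not used here. The authors deposited raw read counts per gene, 1 column per library. The submitters' processing notes name STAR 2.7.5c, featureCounts 2.0.1, edgeR 3.42.4, fastp 0.23.2 and GRCm38 (mm10), and for quality reports MultiQC 1.11 and FastQC 0.11.9. For counting settings, annotation, strand and reads shared by similar genes such as Mt1 and Mt2, details were not given in the sources used here. Saline columns were matched by the word Ctrl and their number, and DTx columns to their group alone. Titles carry a running number per group but do not state that every number is another animal, and the spread behind the p-values may be technical. No pair agreed within sampling noise (chi-square of at least 14.2 per degree of freedom, genes with at least 20 counts).

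Genes were compared with edgeR 4.0.16 in R 4.3.3 (TMM, filterByExpr with a minimum count of 10, robust quasi-likelihood F test, Benjamini-Hochberg over 15532 genes, threshold 0.05). Alternatives were other scalings and filters, each library left out, DESeq2 1.42.0 and voom of limma 3.58.1. Similarity used log2 CPM with a prior count of 2. Transcript lengths and coding sequences come from GENCODE M21, in place of the planned protein lengths, and promoter windows from RefSeq GRCm38.p6. Sequences were aligned with Biopython 1.88. All 8 members were named, and in each list the 4 genes with the smallest p, of which 1 is not reported here. Other named genes, the ribosomal protein and short-transcript groups and the metallothionein shares were chosen after values were seen. Members and lists were chosen with earlier results of these data known.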

Additional observations from a re-analysis of the deposited data

How the results depend on the processing

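The call of 0 members, 0 transporter family genes and 0 copper, iron and manganese genes held under all 12 alternatives run, and the smallest adjusted p of a member was 0.320, for Mt2 without DTx library 7A. Of 96 recomputed fold changes of members 92 kept their direction. The other 4 were Mt3 without saline replicate 1 (-0.076, range over left-out libraries -0.076 to 0.88), Slc39a12 without saline replicate 1 (-0.28) and without DTx library 5A (-0.04, range -0.28 to 0.44), and Slc30a1 without DTx library 5A (-0.093, range -0.093 to 0.16). The cause was not tested. All 48 group means of members moved by less than 1 SD under other scalings, and the median log2 fold change of all genes moved by less than 0.1. Genes called over the table numbered 9 with no low-count filter and 117 with DESeq2, against 5, and 5 to 13 with 1 library left out (13 without DTx library 7A). Members with every DTx library higher numbered 3 to 5 (15.4% to 33.3% of all genes), and those with every DTx library lower 1 to 2 (10.97% to 30.1% of all genes), with 1 library left out. The lower count was 0 with upper-quartile and with total-count scaling. No paired analysis was possible because the DTx columns carry no replicate number of the labels. With 2 saline libraries the group's spread rests on a single difference, and leaving out either leaves 1 library that is assumed to vary like the DTx libraries. Slc39a14, with 81 to 135 counts per library, is the member most limited by depth.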

Other observations

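Copper and iron genes, whose ions metallothioneins and some of these transporters also carry, had no member past the test. Of 14 copper genes 13 were tested, with 9 estimates above 0 and a median log2 fold change of 0.08. Atp7b, a copper-exporting ATPase, averaged 11.1 ± 2.24 CPM in DTx libraries (SD, n = 3) and 7.003 ± 1.98 CPM in saline libraries (SD, n = 2), an edgeR adjusted p of 0.795. Cp, the ferroxidase ceruloplasmin, averaged 14.4 ± 5.15 CPM in DTx and 10.6 ± 0.777 CPM in saline libraries, Atox1, a copper chaperone, 57.0 ± 5.40 and 48.2 ± 11.2 CPM, and Atp7a, the related ATPase, 18.7 ± 3.38 and 21.7 ± 2.89 CPM. Their adjusted p was 0.816 to 0.841.

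Of 14 iron genes 12 were tested, with 8 estimates above 0 and a median log2 fold change of 0.05. Hmox1 had the smallest p (edgeR adjusted p = 0.789). Trf, transferrin, which oligodendrocytes make in abundance, had 3478, 2764 and 6335 CPM in DTx 5A, 6A and 7A, against 6882 and 7140 CPM in saline 1 and 2. Every DTx library was below both saline libraries, with an adjusted p of 0.797, and the part of the oligodendrocyte markers in it was not tested. Heph, the ferroxidase hephaestin, averaged 85.3 ± 2.43 CPM in DTx and 74.3 ± 19.9 CPM in saline libraries.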
